A study of Mus musculus with 2 samples.

Results

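The genes described here are 10 transcripts of the integrated stress response, namely the transcription factor gene Atf4 and 9 genes known as its targets or partners: Asns, Ddit3, Trib3, Chac1, Sesn2, Atf5, Ddit4, Fgf21 and Ppp1r15a. Every probe set whose platform gene symbol holds one of these names was taken, which gave 16 probe sets for 10 genes, out of 45101 probe sets on the array and 18193 genes with a probe set of their own. The RNA came from the pancreas of 10-week-old male C57BL/6J mice, an inbred strain, whose mothers ate in pregnancy either a methionine-deficient diet or a control diet. All offspring were weaned at 3 weeks and ate control diet from then on, so the groups differ by the maternal diet and not by their own. Each group was read as 1 pool of RNA on 1 array. How many mice went into a pool is not stated in the labels.

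The integrated stress response starts with kinases that phosphorylate the translation factor eIF2, each answering to a different stress, such as uncharged tRNA when an amino acid runs short or unfolded protein in the endoplasmic reticulum. General translation then slows, while the mRNA of Atf4 is translated more, and the ATF4 protein switches on genes for amino acid uptake and synthesis, redox balance and the end of the response itself. Much of this control acts on translation, so the mRNA level of Atf4 is not a measure of its activity. The exocrine pancreas makes large amounts of secreted protein and uses the kinase PERK of this pathway in normal life.

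By their brightest probe sets, 9 of the 10 transcripts differed by less than 1.5-fold between the pools, beside 80.6% of the 11848 genes past the level filter described below. With median centring 8 of 10 did, since Fgf21 lies at that limit, so the share of the members is close to that of all genes. As deposited the exception was Sesn2, an inhibitor of mTORC1 signalling, which was 2.05-fold lower. Trib3 counts as under 1.5-fold by its brightest probe set, while its other one past the filter was 2.14-fold higher. Without probe sets that can also bind other transcripts the count was 8 of 10. Of these 11848 genes 2.80% were lower by 2-fold or more. Fgf21, a metabolic hormone, was 1.48-fold lower and Atf5, a transcription factor, 1.25-fold lower. Ddit3, which encodes the transcription factor CHOP, was 1.31-fold higher. Asns, the classic amino acid response gene, had nearly the same intensity in both pools.

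With n = 1 array per group there was no replicate and no test, and the spread between mice or between arrays is not known. All differences are methionine-deficient minus control on the scale of log2(intensity + 1). Beside many of them stands a probe-set spread, a robust SD of such differences between probe sets of the same gene at the same level. It was taken in 10 level bins and covers probe noise on these 2 arrays only. A probe set counted as past the level filter if its mean over the pools was at or above the median of the non-control probe sets, an intensity of 150. This held for 13 of the 16 probe sets, and each of the 10 genes kept at least 1. The intensity of a gene was compared only between the pools for the same probe set, since different probe sets bind with different strength. Fewer cells of a type and less RNA per cell cannot be told apart in such pools.

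**Figure D1:**
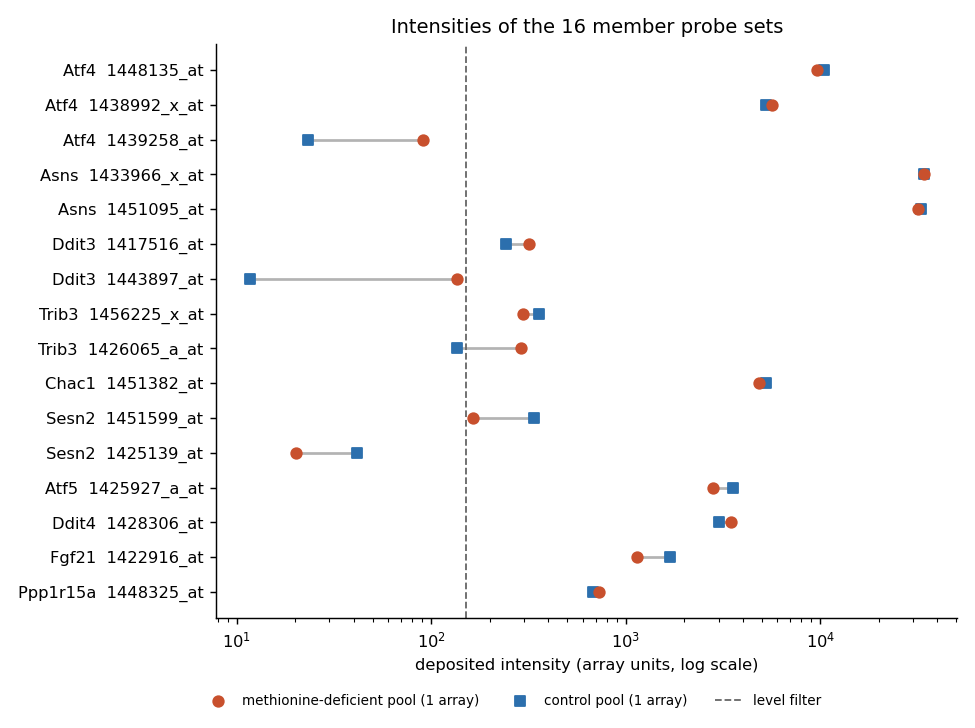
Deposited intensity (log axis) of each of the 16 probe sets in the methionine-deficient pool (circles) and the control pool (squares), 1 array each, with the level filter as a dashed line. The symbols lie close together for Asns, Chac1 and the bright Atf4 probe sets, and far apart for the probe sets of Atf4 and Ddit3 below the filter.

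Atf4 encodes the central transcription factor of the response and was read by 3 probe sets. Its brightest, 1448135_at, had an intensity of 9643 in the methionine-deficient pool and 10457 in the control pool, a log2 difference of -0.12 (spread 0.19). A second, 1438992_x_at, had 5681 in the methionine-deficient pool and 5249 in the control pool, a log2 difference of 0.11 with the same spread. The suffix _x_at marks probes that can also bind other transcripts. Both differences were smaller than the spread and opposite in sign. The third Atf4 probe set, 1439258_at, lay below the level filter, with 91.0 in the methionine-deficient pool and 23.2 in the control pool. Its log2 difference of 1.93 was about as large as the spread at that level (1.94), and it was not matched by the bright probe sets.

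Atf5 encodes a related bZIP factor whose mRNA is likewise translated more when eIF2 is phosphorylated. Its single probe set, 1425927_a_at, had an intensity of 2823 in the methionine-deficient pool and 3542 in the control pool. The log2 difference of -0.33 was 1.74 times the probe-set spread of 0.19.

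Ddit3 encodes CHOP, a bZIP factor that acts with ATF4 and promotes cell death under long stress. Its probe set 1417516_at had 318 in the methionine-deficient pool and 242 in the control pool, a log2 difference of 0.39 with a spread of 0.59. The other, 1443897_at, lay below the filter with 135 in the methionine-deficient pool and 11.7 in the control pool, and its log2 difference was 3.42 with a spread of 1.94. Both were higher in the methionine-deficient pool, but the size of the dim one rests on a control value where background can set it. In the level bin of that probe set, 36.2% of all probe sets passed 2-fold on the higher side and 34.8% on the lower side.

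Among metabolic targets, Asns encodes asparagine synthetase, which makes asparagine from aspartate. Probe set 1433966_x_at had 34015 in the methionine-deficient pool and 34028 in the control pool, a log2 difference of -0.0006 that turned to 0.0090 with loess scaling. Probe set 1451095_at had 31655 in the methionine-deficient pool and 32804 in the control pool, a log2 difference of -0.05. Both lay within the spread of 0.19.

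Chac1 encodes an enzyme that breaks down glutathione and is strongly induced by ATF4. Its only probe set, 1451382_at, had 4863 in the methionine-deficient pool and 5240 in the control pool. The log2 difference was -0.11 with a spread of 0.19, within probe noise.

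ATF4 works through paired elements of the C/EBP-ATF type, of which the letters TGATGNAA were searched as a common core on both strands of RefSeq promoter windows (build GRCm38.p6, 250 bases before to 50 after each gene start). The core was present in 4 of the 11 windows of the members, 1 each of Asns, Chac1, Fgf21 and Trib3, and in 3.97% of all 32851 windows. The match of Trib3 (first base at position 15) lies after its gene start. The stretches of Asns, Chac1 and Fgf21 are shown because they are members with an element of this kind just upstream of the start, with the core in capitals, 5′ to 3′ on the strand of the gene. On that strand the core of Chac1 and Fgf21 reads in the opposite direction. Their first capital lies 23 bases before the start in Asns, 193 in Chac1 and 139 in Fgf21.
Asns, chr6:7693210-7693272, minus strand: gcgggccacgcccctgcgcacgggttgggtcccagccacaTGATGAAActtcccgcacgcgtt
Chac1, chr2:119351009-119351096, plus strand: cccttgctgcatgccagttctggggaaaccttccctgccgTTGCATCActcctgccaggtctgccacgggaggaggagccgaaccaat
Fgf21, chr7:45615582-45615669, minus strand: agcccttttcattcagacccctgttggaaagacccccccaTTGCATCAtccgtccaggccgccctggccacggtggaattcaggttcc
Chac1 and Fgf21 carry the same 8 letters, TTGCATCA, and Asns the variant TGATGAAA. The log2 differences were -0.0006 and -0.05 for Asns, -0.11 for Chac1 and -0.57 for Fgf21, and those of Trib3, the fourth gene with the core, were -0.28 and 1.10. A match describes letters in a window, and binding was not measured.

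Fgf21 encodes a hormone of the fasting and amino acid shortage response, which in mice is also made by acinar cells. Its single probe set, 1422916_at, had an intensity of 1137 in the methionine-deficient pool and 1686 in the control pool. The log2 difference of -0.57 was 1.88 times the probe-set spread of 0.30, the largest such ratio among the 13 member probe sets past the filter. It did not reach 2-fold. With other scalings or another pseudocount it stayed between -0.62 and -0.56.

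Trib3 encodes a pseudokinase that binds ATF4, CHOP and the kinase AKT and restrains them. Its probe sets disagreed. The probe set 1426065_a_at had 291 in the methionine-deficient pool and 135 in the control pool, a log2 difference of 1.10 with a spread of 0.74. The brighter one, 1456225_x_at, had 296 in the methionine-deficient pool and 359 in the control pool, a log2 difference of -0.28 with a spread of 0.59. The direction of Trib3 is therefore not settled by these arrays.

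Ppp1r15a encodes GADD34, the subunit that directs a phosphatase to eIF2 and ends the response. Its probe set 1448325_at had 727 in the methionine-deficient pool and 676 in the control pool, a log2 difference of 0.11 with a spread of 0.30. The difference was a fraction of the probe noise.

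Sesn2 and Ddit4 link the response to growth control, since both proteins inhibit mTORC1, Sesn2 as a leucine sensor and Ddit4 through the TSC complex. Sesn2 probe set 1451599_at had 164 in the methionine-deficient pool and 337 in the control pool, a log2 difference of -1.04 with a spread of 0.59. The second, 1425139_at, lay below the filter, with 20.3 in the methionine-deficient pool and 41.4 in the control pool and a log2 difference of -0.99 with a spread of 2.22. Both Sesn2 probe sets were lower in the methionine-deficient pool, but the size of the dim one is not measurable at that level. With a pseudocount of 16 the first came to -0.97, just short of 2-fold, and the second to -0.66. Ddit4 went the other way, with 3471 in the methionine-deficient pool and 3006 in the control pool at 1428306_at. Its log2 difference of 0.21 was slightly larger than the spread of 0.19.

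**Figure D2:**
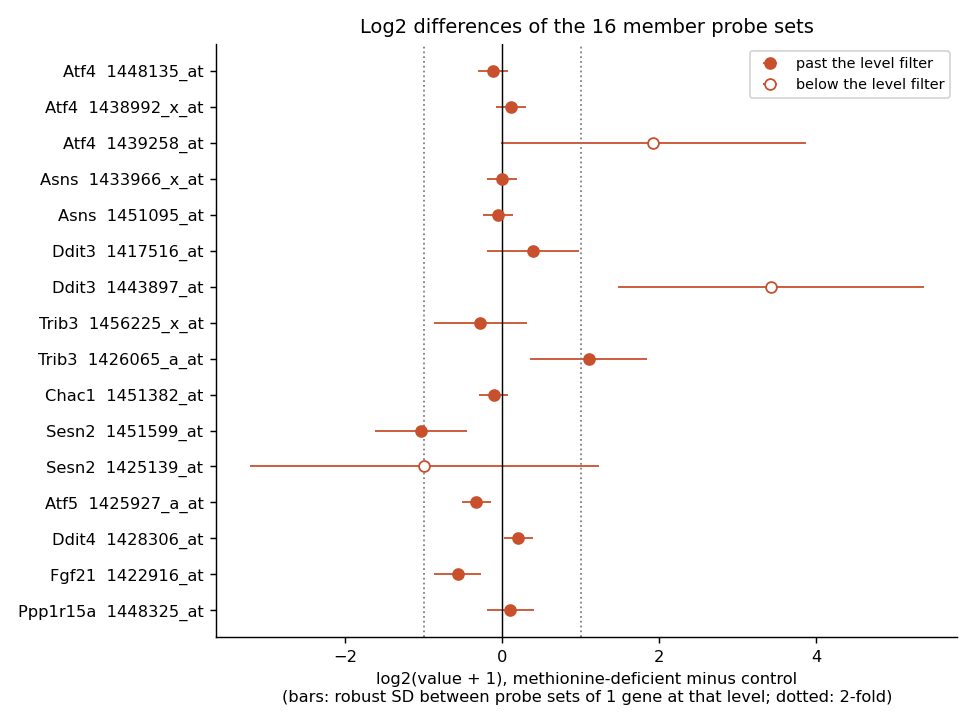
Log2 difference (methionine-deficient minus control) of each of the 16 probe sets, with bars for the probe-set spread at that level and dotted lines at 2-fold. Past the filter (filled), only a Trib3 and a Sesn2 probe set pass 2-fold, at 1.10 and -1.04, and the widest bars belong to the 3 probe sets below the filter (open).

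Over the 13 probe sets past the filter, 5 were higher and 8 lower in the methionine-deficient pool, with a median log2 difference of -0.05, beside a median of 0.01 over all 22519 probe sets past it. At least 2-fold higher was 1 of 13, the Trib3 probe set 1426065_a_at, beside 4.50% of all probe sets past the filter. At least 2-fold lower was 1 of 13, the Sesn2 probe set 1451599_at, beside 3.41%. Such shares depend on level. In the level bin of the Trib3 probe set 12.8% of probe sets were at least 2-fold higher, in that of the Sesn2 probe set 5.42% were at least 2-fold lower, and in the brightest bin, which holds 7 of the member probe sets, 0.377% passed 2-fold in either direction. By the brightest probe set of each gene, 3 of 10 were higher and 7 lower (median -0.11), beside a median of 0.00 over all 11848 genes past the filter.

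**Figure D3:**
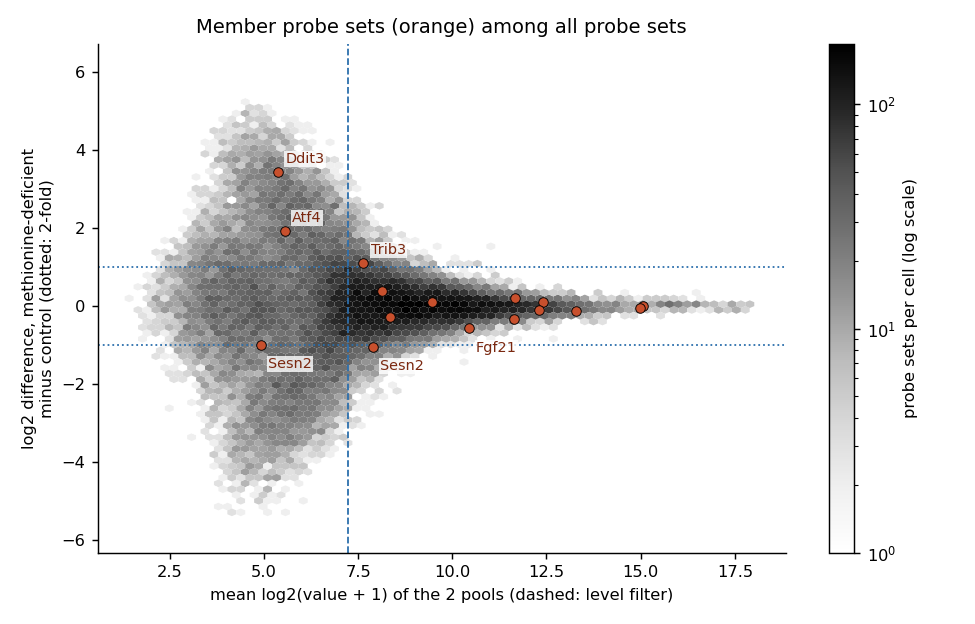
Log2 difference against mean log2 level for all 45037 non-control probe sets (grey, darker for more probe sets), with the 16 member probe sets in orange and names where the difference exceeds 0.5 in either direction. The grey cloud widens below the level filter (dashed), and the largest member differences, those of Ddit3 and Atf4, lie in that wide part.

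The kinases and the eIF2 machinery upstream of Atf4 were lower in 14 of 18 genes (median log2 difference -0.11). Among all 11848 genes past the filter 5924 were lower and 5924 higher. That share stands beside this and the later direction counts. Eif2ak1, the haem-regulated kinase HRI, had the largest difference on the higher side, with 1266 in the methionine-deficient pool and 705 in the control pool, a log2 difference of 0.84 with a spread of 0.30. Its other probe sets past the filter gave 0.45 and 0.17, and those below it gave 1.15 and -1.12. The kinase of the endoplasmic reticulum, Eif2ak3 or PERK, had a log2 difference of 0.24 in its brightest probe set, but its other probe sets gave -1.04 and -0.18. The amino acid sensor Eif2ak4, or GCN2, had -0.18 and 0.21 in its 2 probe sets. Eif2ak2, the kinase activated by double-stranded RNA, had -0.01 in its brightest, while its other probe sets, both past the filter, gave 1.40 and 1.23, so its 3 probe sets do not agree. Gcn1, which helps GCN2 sense uncharged tRNA, had 339 in the methionine-deficient pool and 717 in the control pool, a log2 difference of -1.08 with a spread of 0.46. Its other probe set past the filter gave 0.58, and those below it gave 3.45, 0.41 and -0.48. Eif2b3, a subunit of the exchange factor that recharges eIF2, had -0.22.

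Among 14 bZIP partners and other transcription factors 9 were higher and 5 lower (median 0.12). Atf3, a stress-induced factor downstream of ATF4, had 451 in the methionine-deficient pool and 191 in the control pool in its single probe set, a log2 difference of 1.24 with a spread of 0.59. Cebpa, a C/EBP factor of differentiated metabolic tissues, had 925 in the methionine-deficient pool and 1400 in the control pool, a log2 difference of -0.60 with a spread of 0.30. Atf2 had 0.38 in its brightest probe set, and its others past the filter gave 0.0044, -0.18 and -0.11. The oxidative stress factor Nfe2l2 had 0.31 with a spread of 0.30.

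Paralogs of the members, measured for 9 genes, had a median of -0.05 with 4 higher and 5 lower. Sesn3, a sestrin like Sesn2, had 800 in the methionine-deficient pool and 290 in the control pool in its brightest probe set, a log2 difference of 1.46. Its second probe set, below the filter, gave -1.03. Ddit4l, a relative of Ddit4, had 0.51 with its other probe sets, both below the filter, at -0.91 and -1.94. Trib2 had 0.45 with a spread of 0.74, and its other probe sets, at 0.49 and 4.88, lay below the filter. Ggct, a glutathione-cycle enzyme of the same activity class as Chac1, had -0.58 with a spread of 0.46. Below the filter, other Ggct probe sets gave -1.30 and 0.05.

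Other ATF4 targets in amino acid and redox metabolism were lower in 13 of 21 genes, with a median of -0.04 and none past 2-fold. Transporters made up 9 of these genes, and 4 of them were close in both pools by their brightest probe sets. These were Slc7a5 at -0.03, Slc7a11 at 0.02, Slc6a9 at 0.02 and Slc38a2 at 0.06. Further probe sets past the filter gave 0.39 for Slc6a9 (spread 0.19), -0.02 for Slc7a11, and -0.02 and -0.29 for Slc38a2. The neutral amino acid transporters Slc1a4 and Slc1a5 had log2 differences of -0.61 and -0.41, and the cationic transporter Slc7a3 had -0.58. Slc3a2, the heavy chain shared by several transporters, had 13288 in the methionine-deficient pool and 17768 in the control pool, a log2 difference of -0.42 with a spread of 0.19. Further probe sets of Slc1a4, both past the filter, gave 0.30 and -1.01. That of Slc1a5 lay below the filter and gave 2.96 with a spread of 1.83. Slc3a2 and Slc7a3 have a single probe set each, so whether others would agree is not known.

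The 12 targets of ATF4 and CHOP in growth, secretion and stress that passed the filter were split into 6 higher and 6 lower, with a median of -0.02. The secreted glycoprotein gene Stc2 had 0.61 with a spread of 0.46, but its other probe sets gave 0.08 and -0.12. The cell death gene Bcl2l11 had -0.39 with a spread of 0.59, and its other probe sets past the filter gave -0.47 and 0.77. Bbc3, another cell death gene, had -0.19. The autophagy gene Map1lc3b had 0.16, with others past the filter at 0.14 and -0.22. Aminoacyl-tRNA synthetases, which charge tRNAs and are raised by ATF4 under amino acid shortage, were lower in 8 of 12 genes with a median of -0.05. Tars had -0.33, Eprs -0.26, Aars -0.17 and Mars1 -0.16, each beside a spread of 0.19. A second Aars probe set past the filter gave -0.45 with a spread of 0.30. The other Eprs probe sets past the filter gave -0.12 and -0.01, and that below it -0.30.

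Genes through which amino acids reach mTORC1, the pathway that Sesn2 acts on, had a median of 0.06, with 12 of 20 higher. Wdr24, a subunit of the GATOR2 complex that Sesn2 binds, had 312 in the methionine-deficient pool and 116 in the control pool, a log2 difference of 1.42 with a spread of 0.74 in a single probe set. Mtor had 0.57, with its other probe sets at 0.44 past the filter and 2.60 below it. Mios, another GATOR2 subunit, had 0.49, and Itfg2 of the KICSTOR complex had 0.56. Among 8 FGF21 receptor and regulator genes 5 were higher and 3 lower (median 0.05). Rxra, a nuclear receptor partner, had -0.89, but its other probe sets gave -0.05 past the filter and 0.48 below it. The receptor gene Fgfr1 had 0.53, Fgfr2 had -0.41 and Fgfr3 had -0.44. Each had a probe set of the opposite sign, which for Fgfr3 lay below the filter.

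Endoplasmic reticulum chaperones and other genes of the ATF6 and XBP1 arms of the unfolded protein response were set beside the ATF4 arm. Of these 15 genes 14 were lower, with a median of -0.13. The list also holds Xbp1, Sec61b and Edem1, which are not chaperones. Xbp1 counts as lower at -0.01, while its other probe sets gave 0.03, 0.11 and -0.14. Of all 11848 genes past the filter 5924 were lower. All 15 genes have a probe-set spread of 0.19, and several of their differences lay within it. Creld2 had -0.52, the disulfide isomerase Pdia4 -0.41 with a second probe set at 0.29, and Hyou1 -0.40, while the co-chaperone Dnajb9 was higher at 0.35. No test of a difference between the lists was possible with 1 array per group. Over all lists, each gene counted once, 52 of 125 pathway genes were higher and 73 lower (median -0.05). Past 2-fold were 4 of 125, beside 6.68% of all genes past the filter: Atf3, Sesn3 and Wdr24 on the higher side and Gcn1 on the lower.

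**Figure D4:**
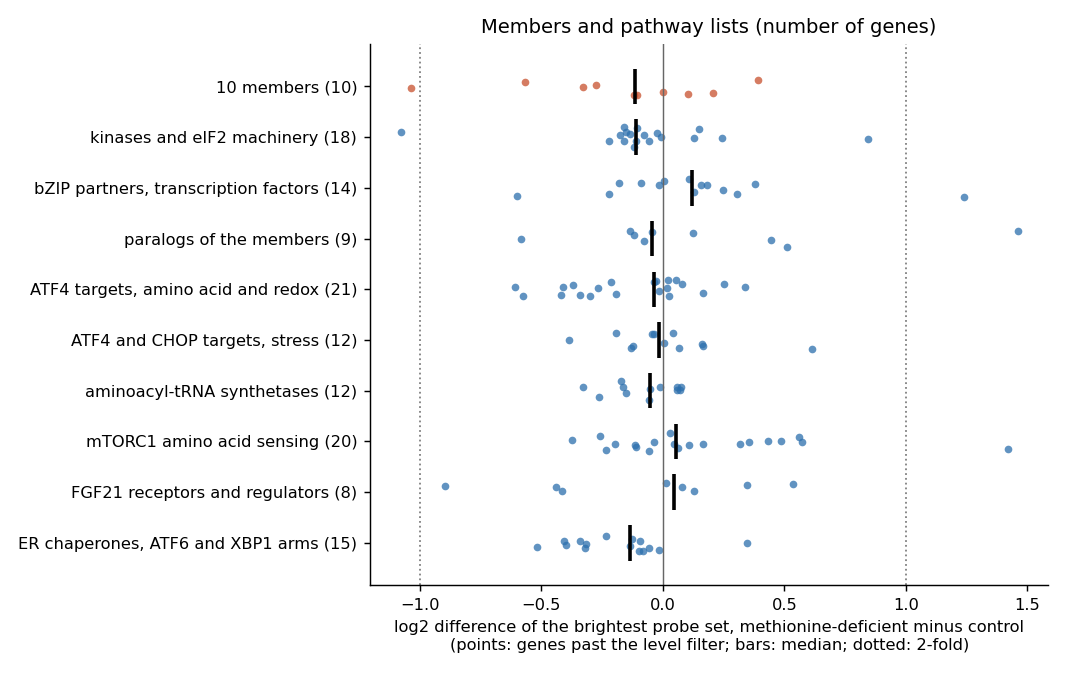
Log2 difference of the brightest probe set of each gene past the level filter, for the 10 members (orange) and the 9 pathway lists (blue), with the median of each as a black bar and dotted lines at 2-fold. All medians lie between -0.13 and 0.12, and the points beyond 2-fold are Sesn2, Gcn1, Atf3, Sesn3 and Wdr24.

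The tissue label was borne out by the acinar markers, of which 7 were measured with intensities from 3950 to 243353 in the methionine-deficient pool and from 4659 to 237669 in the control pool, and a median log2 difference of -0.06. The 7 islet markers measured had a median of -0.0042, but Gcg was higher by 0.39 (spread 0.19) and Slc2a2 had -0.52 (spread 0.46). The 7 macrophage markers had a median of -0.01, but the complement gene C1qa was higher by 1.01 (spread 0.19) and the 3 probe sets of C1qb were all higher. Markers of some other cells had median differences of larger size. Their summed intensities add the brightest probe set of each measured gene and are dominated by the brightest gene. Of B cell and plasma cell genes 5 of 6 were lower (median -0.74), with a summed intensity of 6239 in the methionine-deficient pool and 12566 in the control pool. Adipocyte genes were lower in 3 of 3 cases past the filter (median -0.21). The sums over the 4 adipocyte genes measured were 13064 in the methionine-deficient pool and 15507 in the control pool, and a second bright Fabp4 probe set was higher at 0.82. Fibroblast and stellate genes were higher in 5 of 6 cases (median 0.29), with sums of 21523 in the methionine-deficient pool and 21071 in the control pool. Duct genes were higher in 3 of 4 cases past the filter (median 0.41). Their sums were 10273 in the methionine-deficient pool and 10270 in the control pool, and the brightest, Muc1, had -0.06. Endothelial genes were higher in 3 of 3 cases past the filter (median 0.48), with spreads between 0.46 and 0.59. A second Cdh5 probe set past the filter gave -0.50. RNA quality was read from the array's Actb controls, whose 3' end was 1.76 times as bright as the 5' end in the methionine-deficient pool and 1.46 times in the control pool. For Gapdh these ratios were 1.11 in the methionine-deficient pool and 0.973 in the control pool. The array's poly-A spike-in controls were higher in the methionine-deficient pool in 24 of 27 probe sets, with a median log2 difference of 0.18. The part of these shifts in the differences of Sesn2, Fgf21, Atf5 and Ddit4 was not tested.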

How the data were processed

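Pooled pancreatic RNA was labelled by 3' IVT for an Affymetrix array, per the labels' protocols. The authors deposited a linear intensity for each probe set, and the sources used here name neither the software nor its background correction. The 2% trimmed mean was 500.003 on both arrays, so the authors' values look scaled to a shared target, and a change in total RNA would not show. Detection calls were not used. The number of arrays limits the precision.

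Symbols were those of the 2016 platform table, brought up to date by gene identifier for 34741 probe sets. Of 45037 non-control probe sets, 34945 had 1 symbol, 932 several and 9160 none. Values were analysed as log2(intensity + 1), unscaled. The brightest probe set, by mean level, stood for a gene, and 2-fold was the size counted, with no test. For the probe-set spread, pairs of probe sets of 1 gene in the same of 10 level bins were taken, and the median absolute difference was scaled to an SD and divided by the square root of 2. The spread and the median size of planted differences were checked on simulated data, whose noise in the dim level bins was smaller than that found here. Counting at 2-fold was run on the same simulated data without a pass limit.

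The members and lists were chosen with earlier results of these data known. Named are all 10 members, the 4 eIF2 kinases and, per pathway list, up to 4 genes past the filter with the largest difference. Outside that rule, 4 transporters were named because they were close in both pools by their brightest probe sets. The marker genes named are examples. The alternatives covered scaling (median, quantile, loess), the pseudocount (16), the level filter (none, 75th percentile), cross-binding probe sets left out, probe sets averaged, and sizes of 1.5-fold and 3-fold. Python 3.11.15 was used with numpy 2.4.6, pandas 2.3.3 and statsmodels 0.14.6.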

Additional observations from a re-analysis of the deposited data

How the results depend on the processing

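The 16 member probe sets were recomputed under median centring, quantile and loess scaling and a pseudocount of 16. Of these 64 values 1 changed sign, the Asns probe set near 0 named above, and all 64 moved by less than the probe-set spread. The count of member probe sets at least 2-fold higher, 1 as reported, was 3 with no level filter, which adds the dim probe sets of Ddit3 and Atf4, 0 with the 75th percentile filter and 0 at 3-fold. The count at least 2-fold lower, also 1, was 0 with a pseudocount of 16, 0 with the 75th percentile filter and 0 at 3-fold. Both 0 counts under the stricter filter arise because the Trib3 and Sesn2 probe sets do not pass it. The count of pathway genes past 2-fold, 4 of 125 as reported, was 2 of 105 with the 75th percentile filter. It was 9 of 125 at 1.5-fold and 0 at 3-fold. Among all genes, 52 of 6905 were higher and 38 lower by 2-fold with the 75th percentile filter. At 1.5-fold 1236 of 11848 genes were higher and 1066 lower, and at 3-fold 129 were higher and 86 lower. The count of members under 1.5-fold, an alternative chosen after seeing the data, was 9 of 10 as reported. It was 8 with median centring, 8 without cross-binding probe sets and 7 of the 7 left by the 75th percentile filter. The share of all genes under 1.5-fold was 80.6% as reported and 80.4% with median centring. It was 80.1% without cross-binding probe sets and 92.1% with the 75th percentile filter. The median over member probe sets stayed between -0.10 and -0.03, and that over the members' brightest probe sets between -0.16 and -0.01, the last with the mean over probe sets. No paired analysis was possible because each group has 1 array. Depth, as signal over background, limits the dim probe sets of Atf4, Ddit3 and Sesn2 most.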
